A study of Homo sapiens with 10 samples.

Results

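Messenger RNA of 10 genes of the JAK-STAT pathway was followed in 2 human acute myeloid leukaemia cell lines cultured with JOA or without it. The genes were taken by symbol: the kinases JAK1 and JAK2, the transcription factors STAT3, STAT5A and STAT5B, the feedback inhibitors SOCS1, SOCS2, SOCS3 and CISH, and the STAT-induced kinase PIM1. All 10 had rows among the 21941 gene symbols of the NB4 table, and 8 had a row among the 10801 symbols of the Kasumi-1 table. SOCS2 and CISH were not analysed here in Kasumi-1. The treated groups received 1 µM of the agent JOA for 48 hours, and each control group was incubated with a control for the same 48 hours. Kasumi-1, a line that carries the RUNX1-RUNX1T1 fusion, gave 3 JOA and 3 control libraries, and NB4, an acute promyelocytic leukaemia line with the PML-RARA fusion, gave 2 JOA and 2 control libraries. Titles and agent labels of the NB4 treated libraries name JOA while their source label names I13, and they were grouped as JOA. Each line is a single established culture, and the labels do not say whether replicates came from separate cultures. The p-values therefore reflect variation among these libraries alone, which may be technical.

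Cytokine receptors of this class have no catalytic domain of their own. Ligand binding brings together receptor-bound JAK kinases, which phosphorylate the receptor and the STAT proteins docked on it, and STAT dimers then enter the nucleus and bind short palindromic sites in promoters. Among the genes they switch on are CISH and the SOCS genes, whose proteins dampen the receptor signal, and PIM1, a serine/threonine kinase that favours survival and growth in myeloid cells. The sequencing measured transcript levels and not phosphorylation, so it covers the abundance of the pathway's mRNAs.

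Kasumi-1 values are FPKM (fragments per kilobase of transcript per 1000000 fragments) and NB4 values are TPM (transcripts per 1000000 transcripts). Since each table has its own normalisation, levels were ranked within a line and not between lines. Kasumi-1 libraries had 91.4% to 100% of the depth of the first control library, as recovered from the steps between low values, and the depth of NB4 is unknown. At RUNX1T1 the lines matched their names, with 17.1 to 20.2 FPKM in Kasumi-1 and 0.0159 TPM or less in NB4. MPO, a granule enzyme of the myeloid lineage, was at 5289 FPKM or more in Kasumi-1 and at 4679 TPM or more in NB4. MPO therefore does not separate the lines, and the PML-RARA fusion of NB4 was not examined. Of 6 lymphoid markers, 5 had a value in NB4 and their sum was 39 to 53.6 TPM with JOA and 32 to 33.4 TPM in controls, most of it CD3D, while CD3E and CD2 were at 0.0959 TPM or less. All 10 epithelial and fibroblast markers had values in NB4, with KRT19 at 0 and a sum of 623 to 843 TPM with JOA against 446 to 658 TPM in controls, most of it VIM. In Kasumi-1, where 37.5% of rows received a symbol, only EPCAM and CD79A of these lists had a row with a symbol. EPCAM was at 33.1 to 43.3 FPKM with JOA and 35.5 to 44.4 FPKM in controls. CD79A was at 0.961 to 1.68 FPKM with JOA and 0.722 to 1.69 FPKM in controls. The other markers of these lists were not analysed there. The part of these marker levels in the results was not tested.

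In Kasumi-1 PIM1 was lower with JOA in all 3 same-numbered pairs of libraries, as were 17.7% of all rows tested. STAT5B was higher in all 3, as were JAK1, STAT3, STAT5A and SOCS3 and 36.0% of all rows tested. PIM1 averaged 7.23 ± 2.37 FPKM with JOA and 10.4 ± 3.43 FPKM in controls, and STAT5B averaged 31.2 ± 4.56 FPKM with JOA and 26.5 ± 3.50 FPKM in controls (SD, n = 3 each). Both calls came from limma with the replicate number as a block. The unpaired limma fit, which was the planned one, called 0 of the 7 genes tested and 0 (0%) of all 12100 rows tested, with 1981 rows at an unadjusted p under 0.05. With the block it called 2 of the 7, beside 988 (8.17%) of the 12100 rows, at a Benjamini-Hochberg adjusted p under 0.05. Without any 1 of the 3 pairs the blocked fit called 0 of the 12180 to 12267 rows that then passed the filter, and 0 of the 7 genes, with 2574 to 3178 rows at an unadjusted p under 0.05.

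Results are given as log2 changes of JOA minus control on the log2(value + 1) scale, on which the change of a scarce transcript appears smaller than it is. Because the libraries are bulk and scaled to their own totals, a change in the share of cells that express a gene cannot be told apart from a change in RNA per cell.

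JAK1, the kinase shared by interferon and interleukin-6 type receptors (chromosome 1, 64833229 to 64966504), had 22.6, 23.3 and 23.9 FPKM in the JOA libraries of Kasumi-1 and 20.3, 21.6 and 19.7 FPKM in the controls. Every JOA library lay above every control library, by a ratio of means of 1.13. The log2 change was 0.17 (SE 0.06), with an adjusted p of 0.216 in limma's unpaired fit and 0.0780 in its paired fit. JAK2 (chromosome 9, 4984390 to 5128183), the kinase that serves the erythropoietin, thrombopoietin and granulocyte-macrophage receptors, was less abundant than JAK1, and its groups overlapped. It had 3.62, 3.61 and 4.31 FPKM with JOA and 3.20, 3.71 and 4.19 FPKM in controls, and changed by 0.05 (log2, SE 0.11, limma adjusted p = 0.863). The interval of that change, -0.21 to 0.30, spans both directions, and under median-ratio scaling the change was -0.01.

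The STAT genes stood highest of the 8 in Kasumi-1. STAT5A, STAT5B and STAT3 lie side by side in 189401 bases of chromosome 17, with STAT5B at 42199168 to 42276707, STAT5A at 42287547 to 42311943 and STAT3 at 42313324 to 42388568 (GENCODE v29, GRCh38). STAT5A and STAT5B, near-identical factors downstream of many blood cell cytokines, share a run of 429 identical bases between their main transcripts, and 11.9% of the 50-base windows of the STAT5A transcript occur in that of STAT5B. The split of reads between them is therefore uncertain. STAT5B also overlaps annotated genes on both strands, whose reads may be counted with it.

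STAT5B had 29.7, 36.3 and 27.6 FPKM in the JOA libraries 1, 2 and 3 of Kasumi-1, against 24.5, 30.6 and 24.5 FPKM in the control libraries 1, 2 and 3. The groups overlap, since the second library is the highest in both, but each JOA library exceeded the control of its own number, by ratios of 1.21, 1.19 and 1.12. The log2 change was 0.22, with an SE of 0.12 and an adjusted p of 0.414 in limma's unpaired fit, and an SE of 0.04 and an adjusted p of 0.0395 in its paired fit. With median-ratio scaling of the libraries the paired log2 change was 0.16 (limma adjusted p = 0.0706), so that call rests on the scaling as well as on the pairing.

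STAT5A had 48.0, 56.1 and 46.8 FPKM with JOA and 44.0, 45.5 and 40.2 FPKM in controls. All 3 JOA libraries lay above the controls, and the log2 change of 0.21 had an adjusted p of 0.279 in limma's unpaired fit and 0.0524 in its paired fit. STAT3, the factor of interleukin-6 and granulocyte colony-stimulating factor signalling, had 28.1, 29.4 and 27.9 FPKM with JOA and 26.9, 26.4 and 27.5 FPKM in controls. Its groups did not overlap, yet the log2 change was 0.08 (SE 0.05, limma adjusted p = 0.472). In all, 4 of the 7 genes tested (JAK1, STAT3, STAT5A and SOCS3) had every JOA library above every control, beside 16.0% of all rows, and 0 had every JOA library below, beside 7.10% of all rows. After median-ratio scaling, which lowered the share of rows above to 9.87% and raised the share below to 13.5%, JAK1 and SOCS3 were the 2 genes of the 7 that lay above.

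**Figure D1:**
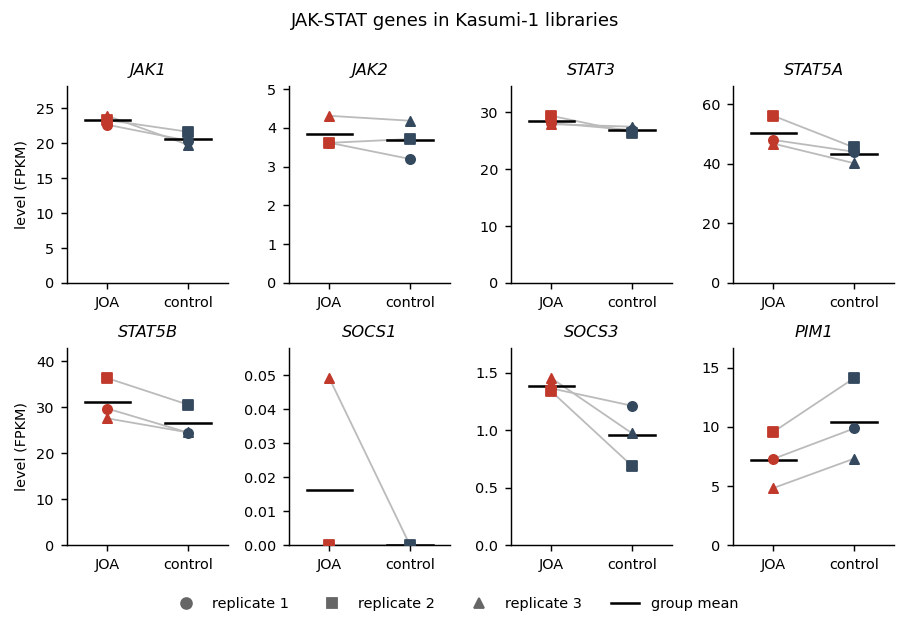
Level in FPKM of the 8 JAK-STAT genes with a row in Kasumi-1, in 3 JOA libraries (left) and 3 control libraries (right) per panel; symbols mark the replicate number, grey lines join libraries of the same number and black bars are group means. PIM1 is lower with JOA in each of the 3 pairs although its groups overlap, as are 17.7% of all rows tested. STAT5B is higher in each, as are JAK1, STAT3, STAT5A and SOCS3 and 36.0% of all rows tested.

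SOCS3 and SOCS1, the feedback inhibitors with a row in Kasumi-1, were scarce. SOCS3 (chromosome 17, 78356778 to 78360077), which binds JAKs and the interleukin-6 receptor chain, had 1.36, 1.34 and 1.45 FPKM with JOA and 1.21, 0.690 and 0.973 FPKM in controls. These values correspond to 62, 62 and 66 fragments with JOA and 60, 33 and 44 fragments in controls, so counting error is large. The JOA libraries lay above all controls, with a log2 change of 0.29 (SE 0.14) and an adjusted p of 0.342 in limma's unpaired fit and 0.174 in its paired fit. SOCS3 was at 1 FPKM or more in every JOA library but only in the first control. Its place among the genes above was therefore tied to the filter. SOCS1, the inhibitor of interferon receptor signalling (chromosome 16, 11254405 to 11256200), was at 0 in 5 of 6 libraries and at 0.0492 FPKM, about 1 fragment, in JOA library 3. A count of 0 there allows up to 0.135 to 0.148 FPKM per library (3 fragments, counting error only), so no difference was detectable at this depth, and SOCS1 did not pass the filter.

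PIM1 (chromosome 6, 37170203 to 37175426) had 7.30, 9.57 and 4.83 FPKM in the JOA libraries 1, 2 and 3 of Kasumi-1, and 9.86, 14.1 and 7.31 FPKM in the control libraries 1, 2 and 3. The 2 groups overlap, because the second library of each is highest and the third lowest, while JOA was below the control of the same number in every pair. The ratios within pairs were 0.740, 0.678 and 0.661, and the ratio of means was 0.694. PIM1's log2 change was -0.47, with an adjusted p of 0.430 (SE 0.27) in limma's unpaired fit and 0.0290 (SE 0.05) in its paired fit. With median-ratio scaling the paired log2 change was -0.53 (limma adjusted p = 0.0257). Without 1 of the 3 pairs the paired log2 change was -0.51, -0.45 or -0.45 and the limma adjusted p 0.0978, 0.0811 or 0.107, and that of STAT5B was 0.20, 0.22 or 0.26 with an adjusted p of 0.157, 0.111 or 0.120. PIM1 was the single one of the 7 genes below its control in all 3 pairs, beside 17.7% of rows, and 5 were above theirs in all 3, beside 36.0% of rows.

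PIM2 and PIM3, the other PIM kinases, phosphorylate overlapping substrates. PIM3 had 28.3, 30.4 and 29.9 FPKM with JOA and 20.2, 24.9 and 22.8 FPKM in Kasumi-1 controls, with no overlap. It rose in the paired limma fit (log2 change 0.38, SE 0.05, adjusted p = 0.0290), and not in the unpaired one (adjusted p = 0.144). PIM2 had 5.82, 4.62 and 5.93 FPKM with JOA and 5.09, 5.63 and 6.33 FPKM in controls, a log2 change of -0.05 (interval -0.31 to 0.21) with overlapping groups. As for the level of PIM1 across the 6 Kasumi-1 libraries, the 5 genes of 4273 that tracked it most closely were PRPS2, PLCXD1, HLA-B, EIF5 and CCL5, with Pearson's r of 0.992 to 0.989. These correlations describe 6 libraries that share the pairing and the treatment. KIT, the stem cell factor receptor of these cells, was likewise highest in the second library of each group, at 310 FPKM with JOA and 322 FPKM in the control, and the part of such pair-to-pair variation in the PIM1 result was not tested beyond the block.

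In level, the order in Kasumi-1 was STAT5A (mean of all 6 libraries 46.8 FPKM), STAT5B (28.9), STAT3 (27.7), JAK1 (21.9), PIM1 (8.83), JAK2 (3.77), SOCS3 (1.17) and SOCS1 (0.00819). STAT5B and STAT3 were the one pair of neighbours whose ranges over libraries overlapped.

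In NB4 none of the 8 genes tested passed the test. JAK1, STAT3, STAT5A and STAT5B were each higher in both JOA libraries than in both controls, 4 of the 8, beside 32.5% of all genes tested, and 0 were lower in both, beside 11.0%. Limma called 0 of the 8 and 1 of 12932 genes (0.00773%), and 3 of the 8 (JAK1, STAT3 and STAT5B) had an unadjusted p under 0.05, as did 1377 of all genes. The median log2 change of the 8 was 0.25, beside 0.08 for all genes tested, and with median-ratio scaling these medians were 0.16 and 0.00. The median of the 8 or 9 pathway genes that passed the filter was 0.45 without control replicate 1, 0.09 without control replicate 2 and 0.16 without JOA replicate 1, beside 0.13, 0.05 and 0.09 for all genes. The same 4 genes stayed above in both JOA libraries under that scaling, beside 19.6% of all genes.

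JAK1 had 31.0 and 29.2 TPM in the NB4 JOA libraries and 26.6 and 18.5 TPM in the controls, and its log2 change was 0.42 (SE 0.18, limma adjusted p = 0.464). The second control library was well below the first. It was also the lowest of the 4 libraries for JAK2, STAT3, STAT5A, STAT5B, SOCS2, SOCS3 and PIM1, but not for SOCS1 or CISH. The share of all genes lowest in that library was not counted, so this is not shown to be particular to these genes. The median log2 change of all genes also moved with the controls, at 0.13 without control replicate 1 and 0.05 without control replicate 2. JAK2 had 16.6 and 12.7 TPM with JOA and 15.1 and 9.38 TPM in controls, with overlapping groups (log2 change 0.26, SE 0.24, limma adjusted p = 0.710).

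STAT3 had 50.2 and 55.8 TPM with JOA and 43.0 and 42.7 TPM in NB4 controls, and its log2 change was 0.30 (SE 0.11, limma adjusted p = 0.433). STAT5B had 51.6 and 59.7 TPM with JOA and 45.6 and 40.3 TPM in controls (log2 change 0.36, SE 0.13, limma adjusted p = 0.396). For STAT5A the values were 47.4 and 47.7 TPM with JOA and 44.7 and 36.9 TPM in controls (log2 change 0.22, SE 0.13, limma adjusted p = 0.576). The groups of all 3 STAT genes were separate, by a gap wider than the distance between replicates for STAT3, and narrower than the distance within one of the groups for STAT5A and STAT5B.

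**Figure D2:**
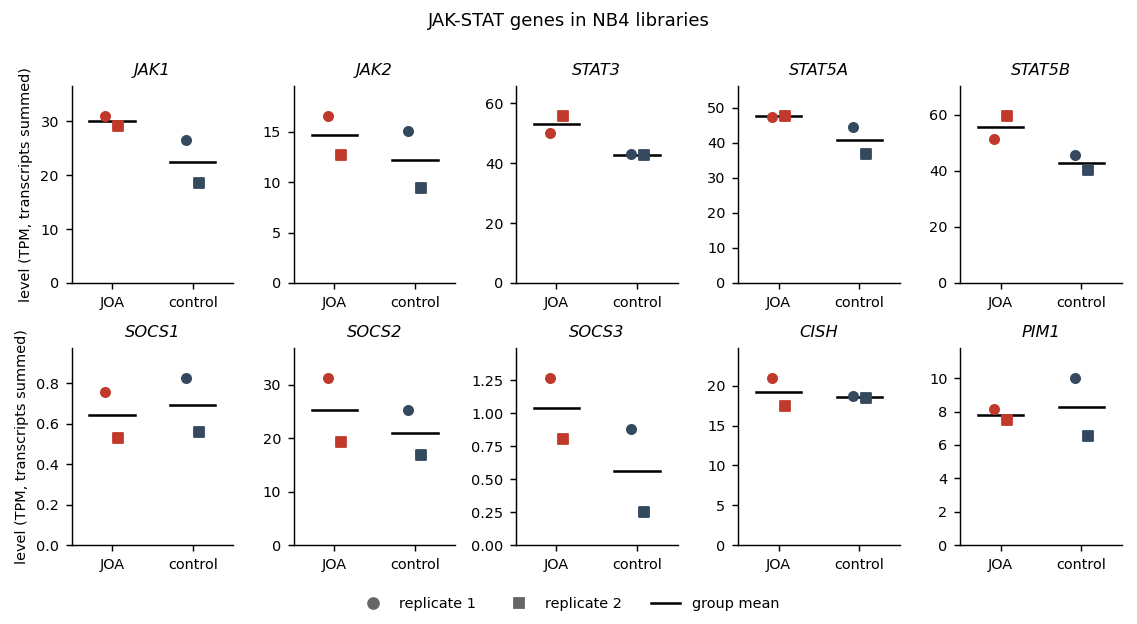
Level in TPM, with transcripts summed to genes, of the 10 JAK-STAT genes in 2 JOA libraries (left) and 2 control libraries (right) of NB4; symbols mark the replicate number and black bars are group means. JAK1, STAT3, STAT5A and STAT5B lie higher in both JOA libraries than in both controls, and the other 6 genes overlap.

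CISH and SOCS2 were well expressed in NB4. CISH (chromosome 3, 50606490 to 50611831), an inhibitor that competes for STAT5 docking sites on receptors, is the classic STAT5 target, and its promoter carries 4 copies of the palindromic STAT site in the window before the gene start. The site searched was TTCNNNGAA, which reads the same on both strands, and the stretch is printed from RefSeq (GRCh38.p14, chr3:50611865-50612024, minus strand) with the 9 bases of each copy in capitals. IRF1 and BCL6, further STAT targets named below, have 1 copy each and are shown for comparison, with flanks (chr5:132490879-132490907 and chr3:187745478-187745506, both minus strand).
CISH: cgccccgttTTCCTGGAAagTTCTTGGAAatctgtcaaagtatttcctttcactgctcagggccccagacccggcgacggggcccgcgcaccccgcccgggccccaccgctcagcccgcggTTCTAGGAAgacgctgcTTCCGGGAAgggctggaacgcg
IRF1: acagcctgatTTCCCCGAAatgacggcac
BCL6: gaagctcaaaTTCCGAGAAttgagctctg

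Of 35116 promoter windows of 250 bases, 6.57% held the site at least once and 5 windows (0.0142%) held it 4 times or more. Of the 10 pathway genes, 9 had 17 windows between them, and the CISH window was the 1 with the site. A match describes these letters and shows no binding, and a window without one says only that the letters are not in it.

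CISH had 20.9 and 17.5 TPM with JOA and 18.7 and 18.5 TPM in NB4 controls, so the JOA libraries fell on either side of the controls. The log2 change was 0.04, with an interval of -0.30 to 0.38 (limma adjusted p = 0.941), and under median-ratio scaling it was -0.05. SOCS2 (chromosome 12, 93569814 to 93583487), which restrains growth hormone receptor signalling, had 31.2 and 19.2 TPM with JOA and 25.2 and 16.8 TPM in controls. In both groups library 1 was the higher, the groups overlapped, and the log2 change was 0.24 (interval -0.36 to 0.84, limma adjusted p = 0.762).

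SOCS3 was again near the lower limit, with 1.26 and 0.808 TPM with JOA and 0.877 and 0.251 TPM in NB4 controls. SOCS1 had 0.756 and 0.531 TPM with JOA and 0.825 and 0.560 TPM in controls. Both were below the filter of 1 TPM in at least 2 libraries and were not tested, and their groups overlapped.

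PIM1 had 8.12 and 7.51 TPM in the NB4 JOA libraries and 9.996 and 6.56 TPM in the controls. The JOA libraries lay between the controls, and the log2 change was -0.05 (interval -0.56 to 0.46, limma adjusted p = 0.956). PIM2 had 33.2 and 27.7 TPM with JOA and 30.3 and 31.1 TPM in controls, and PIM3 had 48.2 and 44.3 TPM with JOA and 46.2 and 46.7 TPM in controls, with overlapping groups for both.

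**Figure D3:**
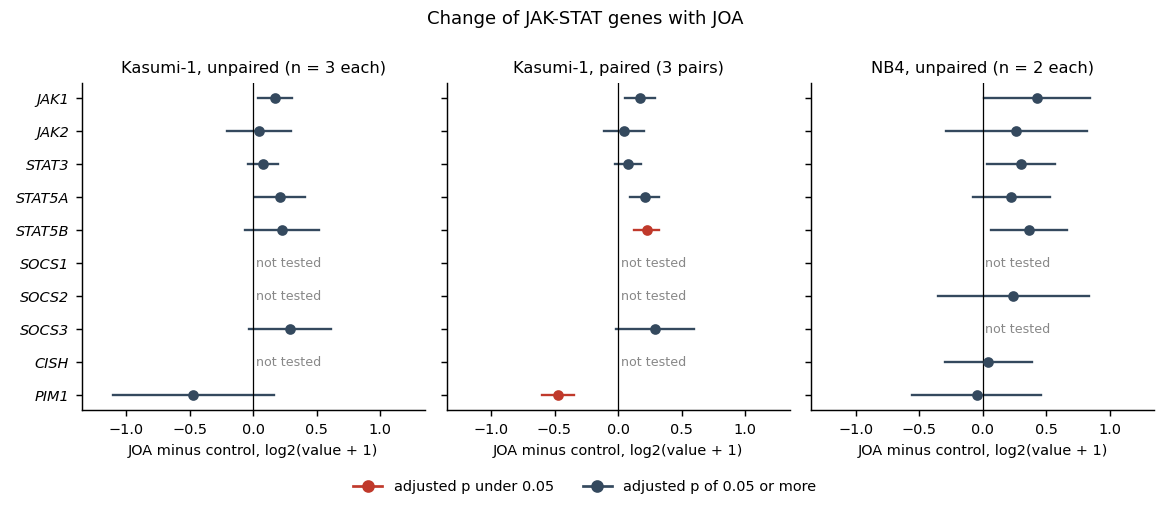
Change with JOA (JOA minus control, log2(value + 1)) of the JAK-STAT genes in the unpaired Kasumi-1 fit, the Kasumi-1 fit with the replicate number as a block, and the unpaired NB4 fit; bars are 95% intervals from limma and red marks an adjusted p under 0.05. STAT5B (0.22) and PIM1 (-0.47) pass in the paired Kasumi-1 fit, and 0 genes pass in the other panels.

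In NB4 the order of levels was STAT5B (mean of 4 libraries 49.3 TPM), STAT3 (47.9), STAT5A (44.2), JAK1 (26.3), SOCS2 (23.1), CISH (18.9), JAK2 (13.4), PIM1 (8.05), SOCS3 (0.800) and SOCS1 (0.668). The 3 STATs overlapped as neighbours, as did JAK1 with SOCS2, SOCS2 with CISH, JAK2 with PIM1, and SOCS3 with SOCS1. Both lines thus had the 3 STATs highest and SOCS1 lowest of the genes with a value.

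Part of the NB4 signal came from transcripts that encode no protein. Protein-coding transcripts held 81.5% of the JAK1 signal, 95.5% of JAK2, 85.3% of STAT3, 73.6% of STAT5A, 66.5% of STAT5B, 94.1% of CISH and 63.4% of PIM1, and all of the signal of the 3 SOCS genes. SOCS1 and SOCS3 had only 1 listed transcript each, a coding one, so their share was fixed by the annotation. In STAT5B the rest, 33.5%, was annotated as retained intron. From coding transcripts alone, STAT5A had 37.8 and 35.6 TPM with JOA and 30.7 and 25.98 TPM in controls, a log2 change of 0.37 (limma adjusted p = 0.289), against 0.22 over all transcripts. Coding PIM1 had 5.13 and 4.78 TPM with JOA and 5.37 and 5.14 TPM in controls, a log2 change of -0.07 (limma adjusted p = 0.887).

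Among 34 transcripts of the pathway genes that passed the filter, limma called 0, as it called 0 (0%) of all 51643 transcripts, with 3 of the 34 and 3469 of all at an unadjusted p under 0.05. The 3 were STAT5A-209, STAT5B-201 and SOCS2-211. STAT5A-209, a coding transcript, had 12.6 and 13.2 TPM with JOA and 8.35 and 7.93 TPM in controls (log2 change 0.60, limma adjusted p = 0.731). The main STAT5A-201 differed less, at 15.3 and 13.5 TPM with JOA and 14.4 and 12.2 TPM in controls. STAT5B-201 had 35.1 and 39.0 TPM with JOA and 29.9 and 26.6 TPM in controls (log2 change 0.38, limma adjusted p = 0.739), and SOCS2-211 had 2.58 and 1.41 TPM with JOA and 0.756 and 0 TPM in controls. SOCS2-211 passed the filter through its JOA libraries alone, so its higher values there were tied to the filter.

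Other transcripts with a mean of at least 1 TPM were led by STAT3-201 (31.3 and 30.2 TPM with JOA, 25.3 and 25.0 TPM in controls), JAK1-201 (23.0 and 25.2 TPM with JOA, 20 and 17.6 TPM in controls) and CISH-201 (19.8 and 16.8 TPM with JOA, 17.2 and 17.3 TPM in controls). The leading SOCS2 transcript, SOCS2-202, swung between libraries of a group, with 15.5 and 4.74 TPM with JOA and 12.6 and 5.74 TPM in controls. JAK2-201 had 8.77 and 8.22 TPM with JOA and 8.01 and 5.42 TPM in controls. JAK2-202, of only 327 bases though annotated as coding, had 6.27 and 3.895 TPM with JOA and 6.405 and 3.01 TPM in controls. Its signal is part of the JAK2 total and of the JAK2 coding share. PIM1-203, which is not coding, had 2.11 and 1.63 TPM with JOA and 4.43 and 0.688 TPM in controls.

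**Figure D4:**
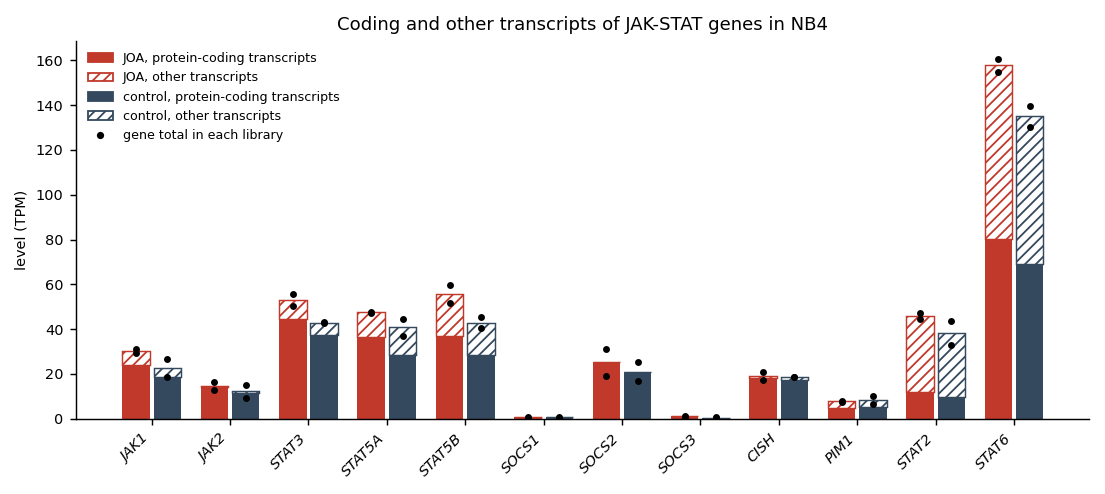
Mean level in TPM of protein-coding transcripts (filled) and other transcripts (hatched) of the 10 JAK-STAT genes and of STAT2 and STAT6 in NB4, with JOA left (red) and control right (blue); dots are the total of each gene in each of the 2 libraries. In STAT2 and STAT6 coding transcripts hold 25.8% and 51.0% of the signal, and in STAT5B 66.5%.

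Whether the 2 lines changed differently was tested as the JOA change in Kasumi-1 minus that in NB4. Limma called 0 of the 7 genes tested in both and 14 of 7111 genes (0.197%), and 1 of the 7, STAT3, had an unadjusted p under 0.05, as did 838 of all genes. All 7 differences were below 0 as deposited, and of all 7111 genes 40.75% lay above 0, with a median of -0.05. The 7 ranged from -0.42 for PIM1 to -0.01 for STAT5A. Without NB4 control replicate 2, 3 of the 7 lay above 0 and their median was -0.0015, beside 46.97% above 0 and a median of -0.015 for all genes. STAT5A lay above 0 under median-ratio scaling (0.02), and so did STAT5A and SOCS3 where both lines were rescaled to a sum of 1000000 (0.01 and 0.06). For PIM1 the interval of the difference was -1.26 to 0.42 (limma adjusted p = 0.692), so its lower value in Kasumi-1 is not shown to differ from NB4. That fit was unpaired, whereas PIM1 was called in Kasumi-1 only with the block. With the replicate block the difference fit also called 0 of the 7, beside 43 of 7111 genes. The STAT3 difference was -0.22 (interval -0.44 to -0.0032, limma adjusted p = 0.417), with JOA minus control of 0.08 in Kasumi-1 and 0.30 in NB4.

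The wider pathway was read from lists of the other JAKs and STATs, receptor chains, ligands, negative regulators and STAT targets. In the paired Kasumi-1 fit, 1 of 2 other JAKs and STATs rose, as did 1 of 10 receptor chains, 1 of 10 negative regulators and 2 of 9 STAT targets, and 0 fell in any of these lists. Among all 12100 rows 6.11% rose and 2.06% fell. The unpaired limma fit called 0 in each list, with the median log2 change at 0.26 for the other JAKs and STATs, 0.19 for receptor chains, 0.07 for negative regulators and 0.03 for targets, beside 0.05 for all rows. The paired calls over all rows were 739 higher and 249 lower with JOA as deposited, and 455 higher and 663 lower after median-ratio scaling.

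STAT6, the factor of interleukin-4 signalling, had 18.7, 18.0 and 18.7 FPKM with JOA and 14.6, 13.9 and 15.0 FPKM in Kasumi-1 controls, with a wide gap between the groups. It rose in the paired limma fit (log2 change 0.33, SE 0.04, adjusted p = 0.0290), and the unpaired adjusted p was 0.115. TYK2, the fourth JAK kinase, had 16.9, 16.7 and 21.9 FPKM with JOA and 14.3, 15.8 and 17.7 FPKM in controls, higher in 3 of 3 pairs (log2 change 0.20, adjusted p 0.457 in limma's unpaired fit and 0.0794 in its paired fit). JAK3 and STAT2 were not analysed here in Kasumi-1.

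IL6R, the ligand-binding chain of the interleukin-6 receptor, had 2.77, 2.65 and 3.19 FPKM with JOA and 1.63, 1.54 and 1.70 FPKM in Kasumi-1 controls. All JOA libraries were higher, by a ratio of means of 1.77, and IL6R rose in the paired limma fit (log2 change 0.56, SE 0.08, adjusted p = 0.0306; unpaired adjusted p = 0.115). Its signalling partner IL6ST had 5.37, 4.67 and 6.07 FPKM with JOA and 4.75, 4.87 and 5.03 FPKM in controls, with overlapping groups. CSF2RB, the beta chain shared by the receptors for interleukin-3 and granulocyte-macrophage colony-stimulating factor, had 2.49, 2.14 and 1.89 FPKM with JOA and 2.53, 1.45 and 1.36 FPKM in controls. IFNGR1, a chain of the interferon gamma receptor, had 15.7, 12.1 and 13.4 FPKM with JOA and 13.9, 11.8 and 14.8 FPKM in controls, also overlapping. CSF3R was not analysed here in Kasumi-1. Of the 12 ligands, 6 had a row with a symbol in Kasumi-1 and 0 passed the filter. OSM was among them, with 0.512, 0.307 and 0.171 FPKM with JOA and 0.471, 0.243 and 0.715 FPKM in controls.

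SH2B3, an adaptor that restrains JAK2, had 31.7, 23.1 and 27.2 FPKM with JOA and 24.5, 20.7 and 21.2 FPKM in Kasumi-1 controls. Its groups overlapped while each pair was higher with JOA, and it rose in the paired limma fit (log2 change 0.29, adjusted p = 0.0415), with an adjusted p of 0.0519 after median-ratio scaling and 0.297 unpaired. PTPN11, the phosphatase SHP2, had 61.1, 55.3 and 61.6 FPKM with JOA and 63.2, 62.0 and 63.3 FPKM in controls (log2 change -0.08, limma adjusted p = 0.517).

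Among STAT targets, CEBPB, a myeloid transcription factor, had 7.72, 6.03 and 6.40 FPKM with JOA and 4.21, 4.41 and 3.897 FPKM in Kasumi-1 controls, with no overlap. It rose in the paired limma fit together with PIM3 (log2 change 0.57, SE 0.08, adjusted p = 0.0322; unpaired adjusted p = 0.115). The survival gene MCL1 had 59.0, 59.2 and 59.0 FPKM with JOA and 55.6, 56.7 and 52.4 FPKM in controls (log2 change 0.10, limma adjusted p = 0.357). BCL2L1, which encodes BCL-XL, had 5.79, 6.30 and 6.98 FPKM with JOA and 5.85, 6.57 and 6.15 FPKM in controls, with a log2 change of 0.03 that became -0.03 under median-ratio scaling. CCND2, cyclin D2, had 29.5, 30.8 and 21.6 FPKM with JOA and 30.3, 38.2 and 25.7 FPKM in controls, below its control in 3 of 3 pairs (log2 change -0.19, adjusted p 0.621 in limma's unpaired fit and 0.103 in its paired fit). Without any 1 pair 0 of these genes passed, and the adjusted p of STAT6, IL6R, SH2B3, PIM3 and CEBPB then lay between 0.0763 and 0.155.

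In NB4, limma called 0 in each list of 3 other JAKs and STATs, 17 receptor chains, 1 ligand, 16 negative regulators and 16 STAT targets. Their median log2 changes were 0.22, 0.26, -0.36, 0.20 and -0.01 in that order, beside 0.08 for all genes. Of the 17 receptor chains, 12 were higher in both JOA libraries than in both controls and 1 was lower. Of the 16 negative regulators 9 were higher and 0 lower, and of the 3 other JAKs and STATs 2 were higher and 0 lower. Of the 16 STAT targets only 3 were higher and 2 were lower, and the 1 ligand was lower. Among all genes 32.5% were higher and 11.0% lower. The largest log2 change of these lists was that of PTPRC (CD45), a receptor phosphatase that acts on JAKs, with 56.0 and 68.0 TPM with JOA and 43.4 and 31.0 TPM in controls (log2 change 0.73, SE 0.18, limma adjusted p = 0.267).

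CSF3R, the granulocyte colony-stimulating factor receptor, had 73.1 and 59.7 TPM with JOA and 51.7 and 36.9 TPM in NB4 controls (log2 change 0.58, limma adjusted p = 0.337). IL6ST had 2.91 and 2.70 TPM with JOA and 1.59 and 1.501 TPM in controls (log2 change 0.58, limma adjusted p = 0.435), and over its coding transcripts alone the log2 change was 0.04 (limma adjusted p = 0.950). IL6ST and IL13RA1, at 7.43 and 7.62 TPM with JOA and 5.35 and 4.59 TPM in controls, were the 2 pathway genes that passed in a limma fit with variance shared over both lines, with an adjusted p of 0.0419 and 0.0413, beside 154 (2.17%) of 7111 genes. IFNGR1 had 26.8 and 28.1 TPM with JOA and 23.7 and 24.3 TPM in controls, CSF2RB had 1.09 and 1.44 TPM with JOA and 1.42 and 1.37 TPM in controls, and IL6R had 36.8 and 32.7 TPM with JOA and 32.5 and 25.6 TPM in controls.

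TYK2 had 442 and 437 TPM with JOA and 423 and 445 TPM in NB4 controls, of which coding transcripts held 28.5%, and its log2 change of 0.02 was -0.08 under median-ratio scaling. STAT6 had 155 and 161 TPM with JOA and 130.3 and 139.7 TPM in controls (log2 change 0.22, limma adjusted p = 0.479). STAT2 had 44.4 and 47.4 TPM with JOA and 43.4 and 32.8 TPM in controls, a narrow separation. JAK3 was at 0.111 TPM or less in all 4 libraries.

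The phosphatase PTPN6 (SHP1) had 148 and 132 TPM with JOA and 98.9 and 116 TPM in NB4 controls (log2 change 0.38, limma adjusted p = 0.352). PTPN11 had 70.4 and 79.2 TPM with JOA and 69.8 and 65.4 TPM in controls, and SH2B3 had 40.8 and 48.3 TPM with JOA and 39.7 and 37.7 TPM in controls. Both lay above the controls without passing the test (limma adjusted p = 0.670 and 0.621).

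The ligand OSM, a cytokine that STAT5 induces, had 6.69 and 5.77 TPM with JOA and 7.99 and 8.60 TPM in NB4 controls (log2 change -0.36, limma adjusted p = 0.516). Among the listed targets, IRF1, an interferon-responsive factor, had 39.5 and 28.6 TPM with JOA and 37.3 and 35.7 TPM in controls, and BCL6, a repressor, had 0.664 and 1.66 TPM with JOA and 0.760 and 0.948 TPM in controls and did not pass the filter. MCL1 had 67.4 and 75.3 TPM with JOA and 68.3 and 59.6 TPM in controls, CCND2 had 48.3 and 47.3 TPM with JOA and 46.7 and 49.4 TPM in controls, and CEBPB had 2.93 and 2.66 TPM with JOA and 4.51 and 2.00 TPM in controls, all overlapping. BCL2L1 had 22.03 and 27.8 TPM with JOA and 19.4 and 21.9 TPM in controls, a narrow separation (log2 change 0.25, limma adjusted p = 0.600).

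Of 6 tested genes of the list of line markers, which was used to check the identity of the lines, 0 passed the test in NB4. In that line 4 were lower in both JOA libraries than in both controls and 1 was higher, beside 11.0% and 32.5% of all genes. Among those lower were genes of granule proteins. PRTN3 had 41.9 and 41.0 TPM with JOA and 141 and 257 TPM in controls, CTSG had 218 and 119.6 TPM with JOA and 335 and 396 TPM in controls, and MPO had 5886 and 4679 TPM with JOA and 7983 and 7693 TPM in controls. Their limma adjusted p was 0.0939, 0.2003 and 0.275. ELANE, neutrophil elastase, had 0.409 and 0.0786 TPM with JOA and 1.00 and 1.59 TPM in controls. ELANE passed the filter through its controls alone, so its place among the 4 lower genes was tied to the filter. CD33, a myeloid surface receptor, was the higher one, with 72.2 and 75.4 TPM with JOA and 58.4 and 49.8 TPM in controls (limma adjusted p = 0.293), and the groups of SPI1, a myeloid transcription factor, overlapped at 180 and 168 TPM with JOA and 172 and 176 TPM in controls. How far their level moves with that of the kinases, STATs and receptor chains in NB4 was not tested.

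**Figure D5:**
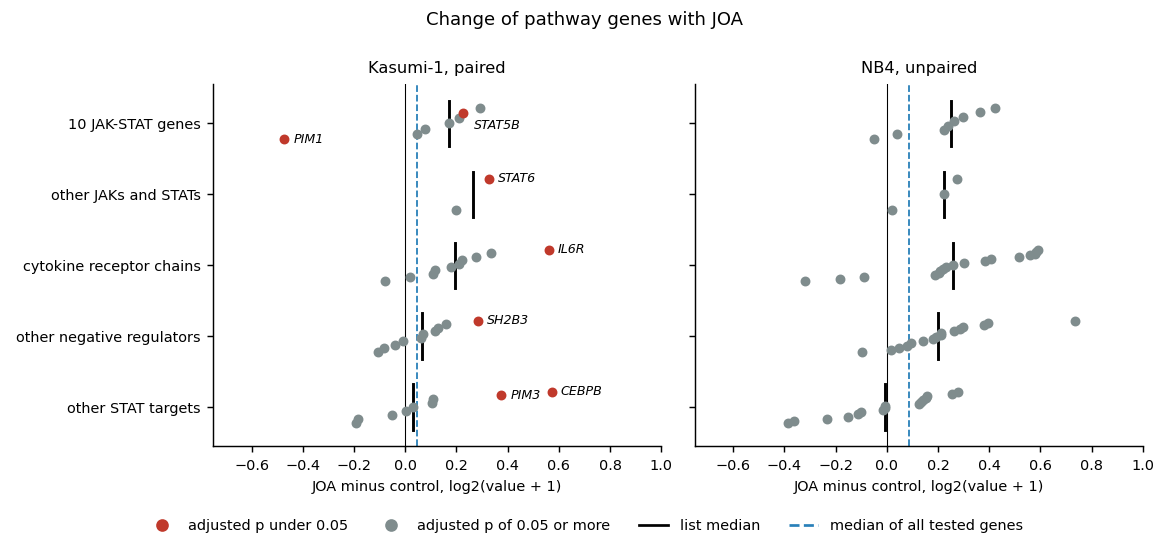
Change with JOA (JOA minus control, log2(value + 1)) of every tested gene of 5 JAK-STAT lists, in the paired Kasumi-1 fit and the unpaired NB4 fit; black bars are list medians, the dashed line is the median of all tested genes, and red marks an adjusted p under 0.05. In Kasumi-1 PIM1 lies at -0.47 and IL6R and CEBPB at 0.56 and 0.57, all 3 past the threshold with the block, and in NB4 0 genes pass.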

How the data were processed

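RNA was sequenced from Kasumi-1 and NB4 cells, with total RNA extracted by Trizol and a stranded TruSeq mRNA kit used for the libraries, per the labels' protocols. Trimmomatic, HISAT2, Cufflinks, HTSeq and hg38 are named in the submitters' processing notes, without roles or versions, and whether counting used the strand is not given in the sources used here. Reads of JAK1, JAK2, STAT5B, SOCS1, SOCS2 and CISH may therefore include those of genes that overlap them on the opposite strand (RAVER2, INSL6, AC099811.4, RMI2, SOCS2-AS1 and MAPKAPK3 among them). The authors deposited FPKM values for Kasumi-1, per the file's name, in 29053 rows labelled by sequence record. RefSeq or GENCODE records, ignoring versions, gave a symbol to 10906 of these (37.5%), which hold 45.8% of the FPKM total. The authors deposited for NB4 a table that is also named for FPKM, but each column sums to 999679 to 999758, so its values were taken as TPM, where the design had assumed FPKM, and the same test was used. Its transcripts were summed by GENCODE v29 symbol (93.9% matched, 3.06% of TPM unmatched).

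The test within each line was limma 3.58.1 in R 4.3.3, on log2(value + 1) with a variance trend, over rows at 1 or more in at least 3 (Kasumi-1) or 2 (NB4) libraries, with Benjamini-Hochberg adjustment over all of them. In Kasumi-1, 7 of 8 pathway genes passed that filter (not SOCS1), and in NB4 8 of 10 (not SOCS1 and SOCS3). The lines were compared in 1 fit over all 10 libraries as the difference of the changes. Deviations from the group mean correlated at 0.330, 0.500 and 0.424 between Kasumi-1 libraries that share a number and at -0.0611 or less between others. The numbers were therefore taken as pairs, though no label states this pairing. Deviations cancel within a group, so the values between others are no separate evidence for it. The pairing was read from the same libraries that the blocked fit used. Whole fragments were recovered from low FPKM values (2800 of 2853 rows whole within 0.02 of a fragment) for the depth and for the fragment counts of SOCS1 and SOCS3 and the SOCS1 floor; no test used them. Fits were tested on simulated data. Alternatives were the pseudocount, the filter, median-ratio scaling, the block, coding transcripts only, shared variance and each library left out.

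The pathway genes, the lists and the rule for named genes were chosen with earlier results of these data known. The rule named the 10 genes, 19 other pathway genes whatever their result, any listed gene past the threshold in the unpaired or blocked fit, transcripts with a mean of at least 1 TPM, and the 5 genes most like the gene with the largest change in Kasumi-1. IL13RA1 was added after its values were seen, and 1 further listed gene is not reported here. Coordinates are those of GENCODE v29 on GRCh38, and sequences come from RefSeq.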

Additional observations from a re-analysis of the deposited data

Results flagged for a closer look

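IFNGR2, a chain of the interferon gamma receptor, lay higher in all JOA libraries of Kasumi-1 (8.29, 6.82 and 8.69 FPKM with JOA, 5.71, 6.51 and 5.97 FPKM in controls) and lower in both JOA libraries of NB4 (9.20 and 8.77 TPM with JOA, 11.7 and 11.2 TPM in controls). IFNGR2, like PTPN11 below, was picked from the lists because its groups separated in opposite directions in the lines. The change in Kasumi-1 minus that in NB4 was 0.652 on the log2 scale (interval 0.31 to 0.99, limma adjusted p = 0.171 over 7111 genes), so the opposite directions did not pass the test. The interval came from the same values as the choice, so its sign was tied to that choice and is no separate evidence. Over coding transcripts alone the NB4 groups overlapped, with 7.26 and 6.79 TPM with JOA and 8.98 and 6.27 TPM in controls (log2 change -0.09, limma adjusted p = 0.876). PTPN11 lay lower in all JOA libraries of Kasumi-1 and higher in both of NB4, a difference of -0.225 (limma adjusted p = 0.444). Separation within a line was common. In Kasumi-1 16.0% of all rows tested had every JOA library above every control and 7.10% below, and in NB4 32.5% and 11.0% of genes. The share of all genes that separated in opposite directions was not counted, so such a pattern is not shown to be unusual. No group had the 4 or more libraries needed to look for a single outlying one.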

How the results depend on the processing

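The Kasumi-1 result depends on the pairing: the unpaired fit called 0 rows and 0 of the 7 pathway genes, the replicate block called 988 rows and 2 genes, and the block with median-ratio scaling, chosen after seeing the data, called 1118 rows and 1 gene. Leaving out 1 library gave 0 to 1 rows without the block (1 without JOA replicate 2). In NB4, where same-numbered libraries correlated at 0.0680 and share only a number, 1 gene was called, against 0 with a pseudocount of 0.1, without the filter, with median-ratio scaling or without any 1 library, 13 over coding transcripts, 154 with variance shared over the lines and 177 with the replicate block; of the 10 kinases, STATs, feedback genes and PIM1, 0 were called in each of these. Shared variance called IL6ST and IL13RA1. The block added PTPRC (adjusted p = 0.0461), MPO, CTSG and PRTN3, and PRTN3 also passed over coding transcripts alone. The difference between lines gave 14 genes, against 2 with a pseudocount of 0.1, 33 without the filter, 43 with the block, 1 after rescaling to a sum of 1000000, and 2 to 120 without 1 library (120 without NB4 control replicate 1). The causes of these moves were not tested.

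Of 105 values of the pathway genes in Kasumi-1 under an alternative, 98 kept their direction and side of the threshold, 3 passed it and 4 changed sign; in NB4 71 of 78 kept both and 7 changed sign, and for the difference 94 of 105 kept both and 11 changed sign. In Kasumi-1, median-ratio scaling, with the block or without, gave -0.0066 for JAK2, -0.0460 for IFNGR1 and -0.0281 for BCL2L1, and the block without 1 pair gave -0.0547 for IFNGR1, 0.0415 for PIM2 and -0.0327 for BCL2L1. Without 1 Kasumi-1 library the log2 change ran from -0.0315 to 0.121 for JAK2, -0.0763 to 0.0985 for IFNGR1, -0.117 to 0.0451 for PIM2, -0.0292 to 0.0869 for BCL2L1 and -0.104 to 0.0930 for PTPRC. In NB4, median-ratio scaling gave -0.0541 for CISH and -0.0816 for TYK2, and coding transcripts gave 0.0119 for PIM3. Without 1 NB4 library the log2 change ran from -0.0530 to 0.582 for JAK2, -0.0946 to 0.575 for SOCS2, -0.0824 to 0.165 for CISH, -0.319 to 0.221 for PIM1, -0.0184 to 0.0557 for TYK2, -0.198 to 0.0240 for CSF2RB, -0.140 to 0.111 for PIM2, -0.0666 to 0.0524 for PIM3, -0.0465 to 0.0317 for CCND2, -0.340 to 0.113 for IRF1 and -0.541 to 0.339 for CEBPB. For the difference, STAT5A gave 0.0197 with median-ratio scaling and 0.0113 after rescaling, and SOCS3 0.0608 after rescaling. Without 1 library the difference ran from -0.534 to 0.1002 for JAK2, -0.146 to 0.123 for STAT5A and -0.401 to 0.184 for SOCS3. The single libraries whose omission turned a pathway gene's sign were JOA replicate 3 and control replicate 1 for JAK2 in Kasumi-1, and in NB4 control replicate 2 for JAK2, JOA replicate 1 and control replicate 2 for SOCS2, JOA replicate 1 for CISH, and JOA replicate 2 and control replicate 1 for PIM1. Where a library was left out of NB4, its lone partner was assumed to vary like the other group.

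SOCS1 in both lines and SOCS3 in NB4 were too scarce to test, and the unknown depth of NB4 allows no counting interval. The 2 NB4 libraries a group limit every NB4 statement.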
